A study of Mus musculus with 12 samples.

Results

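The integrins and the core of the focal adhesion were followed as a set of 37 genes across 12 tumors. They were taken by gene name, and 37 of the 22630 gene rows matched: 16 integrin alpha subunits, 8 integrin beta subunits and 13 intracellular proteins. All 37 passed the filter of 10 counts summed over the tumors, and 36 had a mean above 0.25 RPKM (reads scaled to exon length and to the mapped reads of the tumor), with Itga8 the exception at 0.131.

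The tumors were grown under the skin of NSG mice 8 to 10 weeks old, an immunodeficient strain without mature lymphocytes, from 500000 KCip53-1 cells in each of 2 tumors per mouse. KCip53-1 is a single sorted line from a pancreatic tumor of a mouse whose alleles included Ptf1a-Cre, TREp53R270H and R26rtTa, in which Cre acts in the pancreatic epithelium, doxycycline (dox) switches on mutant p53R270H, and wild-type p53 had been lost. All 12 tumors thus carried the same alleles, and the groups differed in dox and, as far as the labels tell, in the sucrose given with it, which is not stated for no-dox mice. No-dox mice (4 tumors) had none, plus-dox mice (4 tumors) received 0.2 g/l dox in water containing 5% sucrose over 36 days, and in off-dox mice (4 tumors) this lasted 33 days and was followed by 3 days of dox-free water. Which tumors shared a mouse was not given, so p-values are too small where tumors of a group did. RNA came from whole tumors, and a difference in the share of a cell type cannot be told apart from a difference in RNA per cell.

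Integrins are pairs of an alpha and a beta chain that span the membrane and bind the extracellular matrix outside and the actin skeleton inside. Beta1 joins many alpha chains to form receptors for laminin, collagen and fibronectin, alpha6 with beta4 anchors epithelia to the basement membrane in hemidesmosomes, alphav joins several beta chains in receptors for RGD-bearing ligands, and beta2 and beta7 are chains of leukocytes. Talins and kindlins bind the beta tail and activate the receptor, vinculin, paxillin, zyxin and p130Cas (Bcar1) link it to actin and to signaling, and the kinases FAK (Ptk2), Pyk2 (Ptk2b) and Src signal from it.

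Depth ranged from 19845923 to 33137609 counts per tumor over all genes. Every off-dox tumor (25088486 at most) was below every no-dox tumor (25673348 at least), and plus-dox tumors ran from 20784597 to 30208368. The fewest reads behind a member's value in a tumor were 9, for Itga8, and 36 for Itgb6. The share of mapped reads on genes was 88.4% to 89.4% in no-dox, 82.2% to 87.1% in plus-dox and 81.1% to 85.8% in off-dox tumors, which sets every no-dox tumor apart from the other 8. Trp53, the gene whose mutant form dox induces, was at 40.05 to 57.4, 40.4 to 56.0 and 41.6 to 45.4 RPKM in the 3 groups (log2 fold change against no-dox 0.04 for plus-dox and -0.08 for off-dox, edgeR adjusted p = 0.891 and 0.699). Reads of the transgene were not separated from those of the mouse gene. Neither induction by dox nor its loss was visible in these values, so in these data the groups rest on their labels. In tumors grown from KCip53 cells the study stained for dsRed, a reporter expressed together with the mutant p53. It reported no staining without dox, uneven staining on dox and fewer stained cells off dox, where a few appeared to escape regulation. Of the markers of the labelled tissue, the 12 epithelial genes summed to 1093 to 3181 RPKM, whereas Ptf1a, a transcription factor of pancreatic progenitors and acini, was at 0 in every tumor.

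Beta1 RNA was by far the most abundant member. Itgb1 (mm9 chr8:131209554-131257479, plus strand) stood at 218, 220, 337 and 247 RPKM in no-dox tumors 1 to 4, at 197, 437, 223 and 204 in plus-dox tumors and at 183, 249, 176 and 469 in off-dox tumors. The groups overlapped throughout, and the 3 highest values came from 1 tumor of each group, no-dox 3, plus-dox 2 and off-dox 4. The log2 fold change was 0.06 (SE 0.36, edgeR adjusted p = 0.946) for plus-dox against no-dox and 0.11 (SE 0.36, adjusted p = 0.884) for off-dox against no-dox. Without plus-dox tumor 2 the first value became -0.29 and without off-dox tumor 4 the second became -0.33.

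Itgb5, the partner of alphav in a vitronectin receptor, came next among the beta chains. Its values were 70.6, 75.6, 53.9 and 79.1 RPKM in no-dox, 78.9, 56.9, 71.4 and 72.5 in plus-dox and 82.0, 56.2, 68.4 and 51.0 in off-dox tumors. Its 4 lowest tumors, off-dox 4, no-dox 3, off-dox 2 and plus-dox 2, were the 4 with the most Itgb1. Fold changes were small, at 0.01 on the log2 scale for plus-dox and -0.09 for off-dox against no-dox (SE 0.16, adjusted p = 0.974 and 0.775).

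Itgb4, the hemidesmosome chain, was the least variable of the abundant subunits. It was at 35.9, 37.6, 30.3 and 39.7 RPKM in no-dox, at 39.0, 26.2, 36.1 and 39.4 in plus-dox and at 37.3, 38.0, 31.7 and 33.1 in off-dox tumors. Plus-dox 2 and no-dox 3 were the lowest tumors, and no group stood apart. Both log2 fold changes against no-dox were within 0.02 of 0 (-0.02 and -0.01, SE 0.13, adjusted p = 0.954 and 0.984).

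The remaining beta chains were Itgb2 of leukocytes, with a mean of 20.1 RPKM, Itgb3 with 3.41, and Itgb6, Itgb7 and Itgb8 with 1.34, 1.33 and 0.686. Per length, Itgb1 made up 65.2% of the summed beta RPKM on average (55.9% to 80.9% over the tumors), Itgb5 18.3%, Itgb4 9.44% and Itgb2 5.25%. Its share was highest in off-dox 4, plus-dox 2 and no-dox 3, and the shares of the 3 groups overlapped.

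Among alpha chains, the laminin receptors alpha6 and alpha3 led, followed by the fibronectin receptor alpha5. Itga6 (mm9 chr2:71625140-71694815, plus strand) was at 48.9, 63.5, 107 and 58.5 RPKM in no-dox, at 48.3, 194, 55.2 and 44.9 in plus-dox and at 51.1, 80.1, 41.4 and 134 in off-dox tumors. Here too no-dox 3, plus-dox 2 and off-dox 4 were the high tumors, and the highest value was 4.68 times the lowest. The log2 fold changes against no-dox were 0.31 and 0.18 (SE 0.52, adjusted p = 0.790 and 0.870), and became -0.49 without plus-dox 2 and -0.27 without off-dox 4.

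Itga3 was steadier, with 42.0, 51.3, 53.5 and 55.3 RPKM in no-dox, 47.3, 102, 57.1 and 44.8 in plus-dox and 48.3, 55.0, 43.5 and 87.1 in off-dox tumors. Only plus-dox 2 and off-dox 4 were above 57.1 RPKM. Against no-dox the log2 fold changes were 0.32 and 0.24 (SE 0.29, adjusted p = 0.603 and 0.656), and each turned slightly negative without its high tumor (-0.01 without plus-dox 2, -0.04 without off-dox 4).

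Itga5 (mm9 chr15:103174718-103197179, minus strand) had the second largest spread of the 6 leading subunits. Its values were 19.9, 19.99, 37 and 21.6 RPKM in no-dox, 21.5, 75.9, 34.8 and 24.6 in plus-dox and 22.1, 34.5, 22.4 and 88.6 in off-dox tumors. The 2 high tumors were again plus-dox 2 and off-dox 4, and the lowest value of every group lay between 19.9 and 22.1. The log2 fold change was 0.68 for plus-dox and 0.81 for off-dox against no-dox, both with an SE of 0.52 (adjusted p = 0.543 and 0.392). Without plus-dox 2 the first was 0.14 and without off-dox 4 the second was 0.10. Of the other alpha chains, Itgav (mean 29.4 RPKM), Itga2 (25.9) and Itgam (18.1) were the most abundant, and Itga8 was the lowest.

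Itga6 made up 27.02% of the summed alpha RPKM on average (20.6% to 39.9%), Itga3 21.4%, Itga5 12.2%, Itgav 11.4%, Itga2 9.79% and Itgam 7.25%. Summed alpha RPKM ran from 189 in no-dox 1 to 485 in plus-dox 2 and summed beta RPKM from 301 in off-dox 3 to 580 in off-dox 4.

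**Figure D1:**
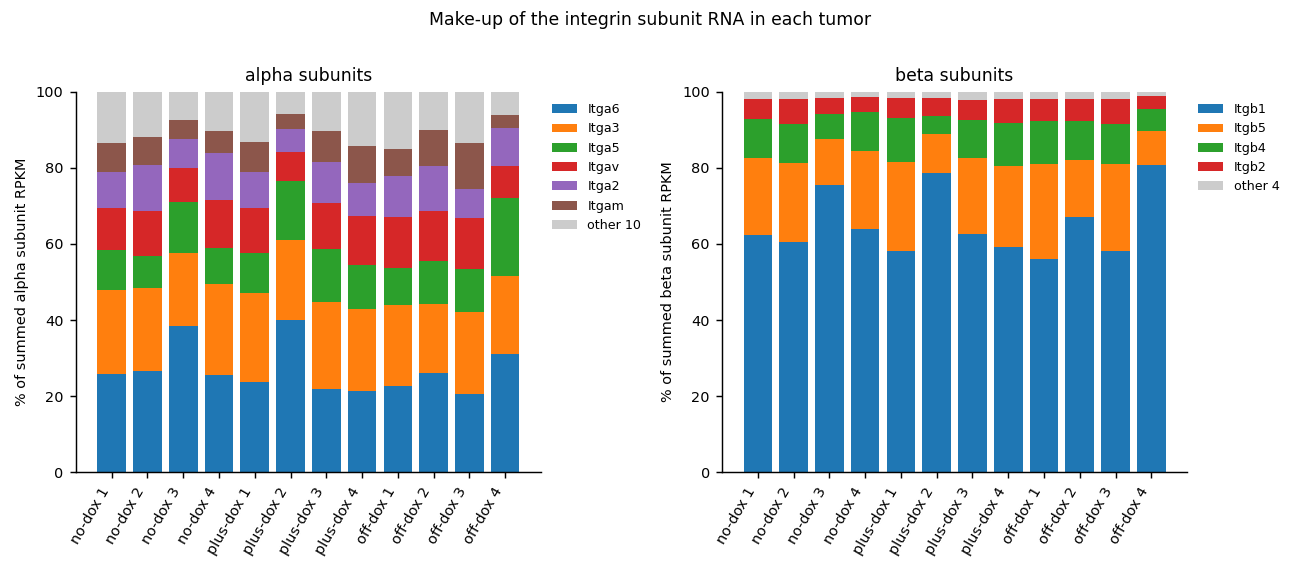
Share of each integrin alpha (left) and beta (right) subunit in the summed RPKM of its class, as stacked bars in percent for each of the 12 tumors. Itgb1 fills 55.9% to 80.9% of every beta bar, and Itga6 takes its largest alpha shares, 39.9% and 38.4%, in plus-dox 2 and no-dox 3.

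The median member varied more between tumors of a group than the median gene did. The median SD of log2 CPM (counts scaled to library size) within groups was 0.298 over the 36 members above 0.25 RPKM and 0.247 over all 14548 such genes. Plus-dox 2 and off-dox 4 were taken as the pair with the lowest mean log2 CPM of the epithelial markers. Their comparison with the other 10 tumors was chosen after the values were seen. In 9 members both tumors of the pair lay above all of the other 10, as in 8.88% of all 17561 genes tested. These were the laminin and fibronectin receptor chains Itga3, Itga5, Itga6 and Itgb1, the tenascin receptor chain Itga9, the kinases Src and Ptk2b, the adaptor Pxn (paxillin) and the second talin, Tln2.

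In 3 members the same pair of tumors lay below the other 10, as in 13.6% of all genes. Fermt1 encodes kindlin-1, the kindlin of epithelia, and stood at 24.4, 36.1, 18.4 and 27.7 RPKM in no-dox, at 27.2, 5.78, 19.2 and 20.6 in plus-dox and at 26.7, 22.6, 15.9 and 12.7 in off-dox tumors. Itgb6, the epithelial partner of alphav that activates TGF-beta, stood at 1.43, 2.59, 1.52 and 1.49 RPKM in no-dox, at 1.11, 0.215, 1.54 and 1.05 in plus-dox and at 1.88, 1.74, 0.956 and 0.522 in off-dox tumors. The log2 fold changes of plus-dox and off-dox against no-dox were -0.54 and -0.42 for Fermt1 (adjusted p = 0.510 and 0.543) and -0.82 and -0.44 for Itgb6 (adjusted p = 0.467 and 0.646). The third was Parva (alpha-parvin), described with the adaptors. Over the 12 tumors Itgb6 spanned 12.0-fold and Fermt1 6.25-fold, the widest ranges of the set, while the kindlin Fermt2 was at 38.5 RPKM in plus-dox 2 and at 18.9 to 28.6 in the others.

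**Figure D2:**
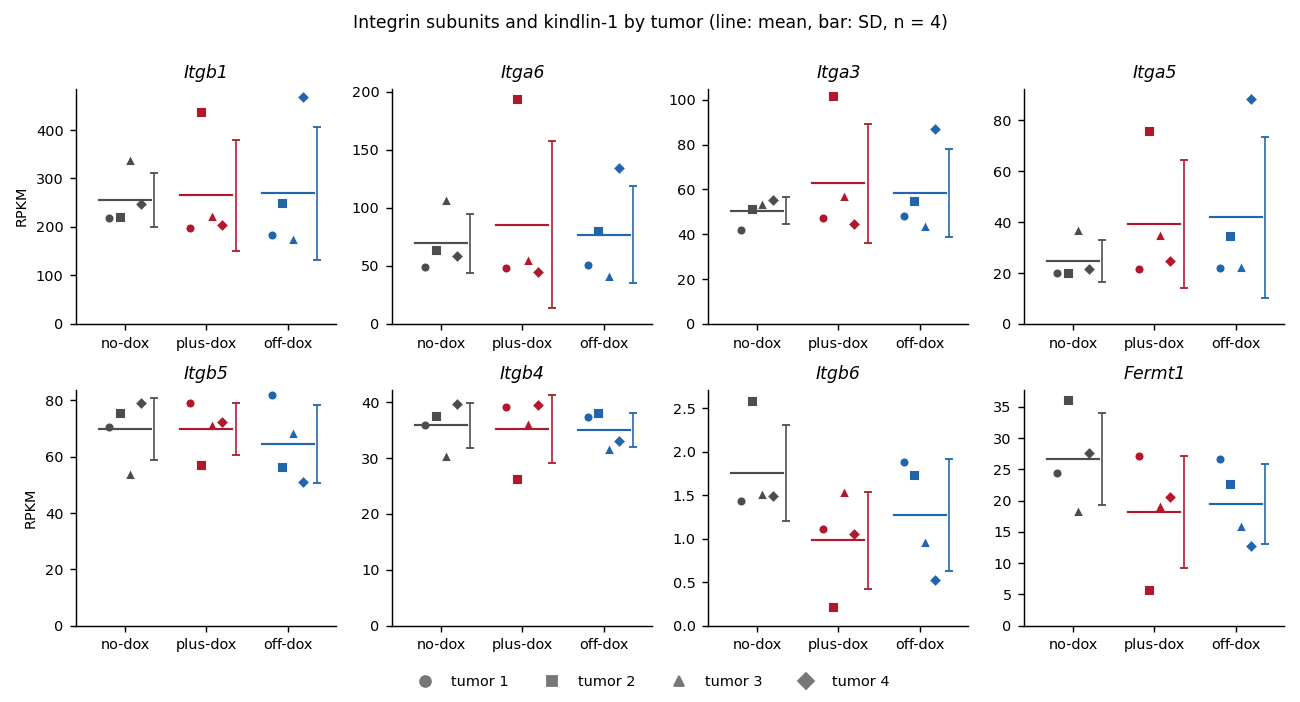
RPKM of the 6 most abundant integrin subunits, Itgb6 and Fermt1 (kindlin-1) in each tumor, with marker shape for the tumor number, a line for the group mean and a bar for the SD (n = 4 per group). Plus-dox 2 and off-dox 4 carry the highest Itga3, Itga5, Itga6 and Itgb1 values and the lowest Itgb6 and Fermt1 values.

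The pair had been taken for its low level of epithelial markers, so that level is not a separate result. The mean log2 CPM of the 12 epithelial genes was 3.82 in plus-dox 2, 5.50 in off-dox 4 and 5.80 to 7.62 in the others, although their summed RPKM was lowest in off-dox 3. Across the 12 tumors Itgb6 followed this level, with r = 0.95 (permutation p = 3e-05, adjusted over 21 relations 0.00063) and rho = 0.85 (permutation p = 0.00088, adjusted 0.0185). Fermt1 did likewise, with r = 0.92 (permutation p = 0.00017, adjusted 0.00178) and rho = 0.76 (permutation p = 0.00552, adjusted 0.058). Without the 2 tumors farthest from the median, plus-dox 2 and off-dox 4, r was 0.78 for Itgb6 and 0.63 for Fermt1, and on deviations from the group means it was 0.96 and 0.91.

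For Itgb4 the relation was weaker, with r = 0.81 (permutation p = 0.00386, adjusted 0.027) and rho = 0.59 (permutation p = 0.0443, adjusted 0.186), and r was 0.58 without the same pair. Itga6 and Itga3 had r = -0.67 and -0.68 (adjusted permutation p = 0.0832 each), but rho was -0.21 and -0.15 (adjusted permutation p = 0.72 and 0.786). Without plus-dox 2 and off-dox 4 their r became 0.20 and 0.44, so these relations rested on that pair. Itgb8 and Itga2 had r = 0.17 and -0.12 with the same list (adjusted permutation p = 0.7 and 0.75).

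**Figure D3:**
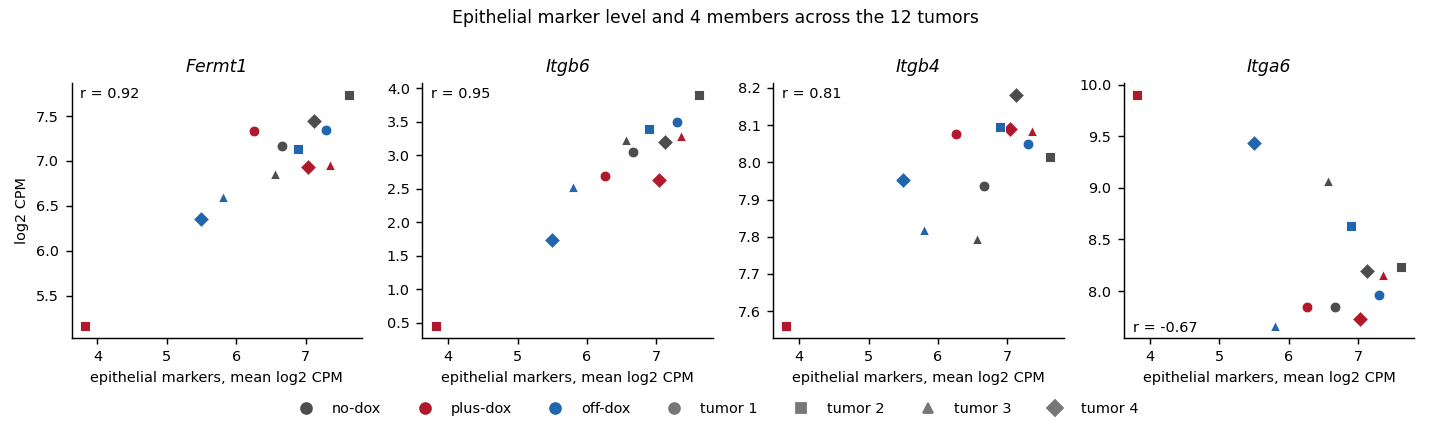
Log2 CPM of Fermt1, Itgb6, Itgb4 and Itga6 (y axes) against the mean log2 CPM of 12 epithelial markers (x axes) in the 12 tumors, colored by group and shaped by tumor number. Plus-dox 2, at 3.82 on the x axis, and off-dox 4, at 5.50, lie at the low end for Fermt1 and Itgb6 and at the high end for Itga6.

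Relations with the markers of other cells were also set beside the members that such cells use. For 5 members with the fibroblast list, r ran from -0.44 to 0.65. Fermt2 (r = 0.65, adjusted permutation p = 0.0832) and the fibroblast collagen receptor chain Itga11 (r = 0.63, adjusted 0.0846) had the largest values, with rho of 0.45 for both (adjusted permutation p = 0.342). Without plus-dox 2 and plus-dox 3 the r values were 0.13 and 0.18, so both rested on those tumors. Of 6 members set beside the macrophage list, leukocyte integrin chains and the kinase Ptk2b, none passed (r from -0.56 for Ptk2b to 0.43 for Itgam). Nor did Itga7, a laminin receptor chain of muscle, with the skeletal muscle list (r = 0.58, adjusted permutation p = 0.123). Itgae and Itgb7 did not pass with the T and NK cell list either (r = 0.09 and 0.19).

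Promoter sequence is shown for 4 members in which plus-dox 2 and off-dox 4 stood apart from the other 10 tumors, Itgb1 and Itga5 on the high side and Itgb6 and Fermt1 on the low side, and for Itga4 and Tln1, whose off-dox and no-dox values did not overlap. Each run holds the 250 bases before the RefSeq start on GRCm38.p6, 5′ to 3′ on the strand of the gene. Capitals mark E-boxes (CANNTG), AP-1 sites (TGANTCA), GC boxes (GGGCGG) and CArG boxes on either strand. Itgb6 has 2 starts in RefSeq and the one farther upstream is shown. The windows are chr8:128685404-128685653 (plus strand) for Itgb1, chr15:103366792-103367041 (minus) for Itga5, chr2:60722604-60722853 (minus) for Itgb6, chr2:132946037-132946286 (minus) for Fermt1, chr2:79255176-79255425 (plus) for Itga4 and chr4:43562584-43562833 (minus) for Tln1.
Itgb1: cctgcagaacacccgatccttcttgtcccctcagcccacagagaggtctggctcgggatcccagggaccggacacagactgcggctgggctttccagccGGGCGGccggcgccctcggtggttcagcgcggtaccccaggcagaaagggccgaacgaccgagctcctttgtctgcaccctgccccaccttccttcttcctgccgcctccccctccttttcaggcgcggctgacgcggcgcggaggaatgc
Itga5: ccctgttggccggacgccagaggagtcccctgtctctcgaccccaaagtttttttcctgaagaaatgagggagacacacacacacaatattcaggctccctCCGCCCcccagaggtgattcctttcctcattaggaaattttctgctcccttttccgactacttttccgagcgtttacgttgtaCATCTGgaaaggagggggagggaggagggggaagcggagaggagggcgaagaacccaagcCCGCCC
Itgb6: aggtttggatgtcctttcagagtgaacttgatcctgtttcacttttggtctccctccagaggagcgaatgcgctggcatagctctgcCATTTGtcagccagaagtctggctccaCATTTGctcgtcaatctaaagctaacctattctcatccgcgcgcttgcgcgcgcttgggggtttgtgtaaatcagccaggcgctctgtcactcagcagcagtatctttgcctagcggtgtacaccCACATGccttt
Fermt1: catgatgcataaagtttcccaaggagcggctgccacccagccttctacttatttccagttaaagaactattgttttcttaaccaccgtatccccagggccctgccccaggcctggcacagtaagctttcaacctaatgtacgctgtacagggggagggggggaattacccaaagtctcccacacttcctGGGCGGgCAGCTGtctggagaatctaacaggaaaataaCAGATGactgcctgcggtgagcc
Itga4: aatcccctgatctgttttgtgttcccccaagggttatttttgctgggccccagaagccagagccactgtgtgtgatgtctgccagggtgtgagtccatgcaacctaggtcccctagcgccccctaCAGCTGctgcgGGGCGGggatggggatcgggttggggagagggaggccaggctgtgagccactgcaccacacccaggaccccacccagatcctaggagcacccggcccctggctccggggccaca
Tln1: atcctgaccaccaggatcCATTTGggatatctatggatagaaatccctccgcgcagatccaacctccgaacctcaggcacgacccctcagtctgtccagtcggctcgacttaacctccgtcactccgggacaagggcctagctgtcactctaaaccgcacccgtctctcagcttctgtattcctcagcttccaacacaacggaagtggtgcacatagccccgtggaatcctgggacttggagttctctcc

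In these windows Itgb1 held 1 GC box and 0 E-boxes and Itga5 held 2 GC boxes and 1 E-box, whereas Itgb6 held 3 E-boxes and 0 GC boxes and Fermt1 2 E-boxes and 1 GC box. None of the 4 held an AP-1 site or a CArG box. RefSeq entries matched 25 of the 37 members, with 29 starts. The other 12 were Itga6, Itga7, Itgae, Itgal, Itgb2, Itgb3, Itgb4, Ptk2, Ptk2b, Parva, Pxn and Tln2. E-boxes stood in 65.5% of the member windows and in 66.2% of all 32851 windows of the same length, and GC boxes in 51.7% and 32.7%. CACCTG, an E-box counted among the former, stood in 20.7% and 17.2%, AP-1 sites in 6.9% and 6.75%, and CArG boxes, the motif of serum response factor, in 10.3% and 1.47%, here in Fermt2, Itgb6 (the other start) and Vcl. These matches describe the letters of the windows, and binding was not measured.

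Dox for the whole course was compared with no dox to ask what goes with the dox treatment meant to induce p53R270H. In edgeR no member passed the limits of the study, which had applied them to DESeq2 results. They required 1.5-fold at an adjusted p below 0.1, more than 0.25 RPKM on average and a gene longer than 250 bp. By edgeR 0 of 37 were called, beside 0% of all 17561 genes tested. An unadjusted edgeR p under 0.05 was found in 5 of 37 members, all higher in plus-dox tumors. Over all genes the share was 13.7% (2400), and 8% (1405) counting only genes higher in plus-dox tumors. DESeq2 called 1 member (Tln2) with unmoderated and 0 with moderated fold changes. The 5 were the collagen receptor chain Itga11, both talins (Tln1 and Tln2), the leukocyte chain Itga4 and Itga9. The median log2 fold change was 0.20 over the members and 0.01 over all genes. A positive value was found in 27 of 37 members, beside 9031 of all 17561 genes. On the log2 CPM scale groups did not overlap in 3 members, Itga11, Tln1 and Tln2, beside 8.86% of all genes.

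Tln2 was at 2.89, 2.97, 3.16 and 2.30 RPKM in no-dox, at 3.85, 5.31, 3.99 and 4.24 in plus-dox and at 3.34, 3.08, 4.32 and 4.58 in off-dox tumors. Every plus-dox value was above every no-dox value, and off-dox 2 lay within the no-dox range. The log2 fold change was 0.63 for plus-dox against no-dox (SE 0.16, adjusted p = 0.322) and 0.47 for off-dox against no-dox (SE 0.16, adjusted p = 0.148).

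Tln1, the more abundant talin per length, was at 26.7, 32.3, 28.0 and 32.1 RPKM in no-dox, at 34.6, 39.8, 38.6 and 41.3 in plus-dox and at 34.9, 38.1, 36.0 and 45.9 in off-dox tumors. No no-dox tumor reached the lowest tumor of either other group. The log2 fold changes were 0.38 (SE 0.13, adjusted p = 0.326) and 0.41 (SE 0.13, adjusted p = 0.121).

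Itga11 was at 3.28, 2.88, 2.94 and 3.32 RPKM in no-dox, at 3.72, 4.90, 5.24 and 4.47 in plus-dox and at 4.12, 3.24, 2.86 and 2.87 in off-dox tumors. Every plus-dox tumor was above every no-dox tumor, and 3 of 4 off-dox tumors were at 3.24 RPKM or less. Its log2 fold change was 0.58 for plus-dox against no-dox (SE 0.15, adjusted p = 0.322) and 0.10 for off-dox against no-dox (SE 0.15, adjusted p = 0.733). The 10 fibroblast markers summed to 1209 to 2157 RPKM in no-dox, 1714 to 3229 in plus-dox and 1402 to 1623 in off-dox tumors, and their part in the Itga11 values was not tested.

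Leaving out no-dox 1, no-dox 4 or plus-dox 2 left 3 members with p under 0.05 in this comparison, and leaving out plus-dox 1 gave 9. The number whose groups did not overlap became 5 without no-dox 2, no-dox 4 or plus-dox 3. Leaving out a tumor can only keep or raise this number. With fewer tumors, or with the covariate below, the share of all genes was counted neither for p under 0.05 nor for overlap. With the share of mapped reads on genes as a covariate 2 members had p under 0.05. Because that share set every no-dox tumor apart, the fit can barely separate it from dox.

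**Figure D4:**
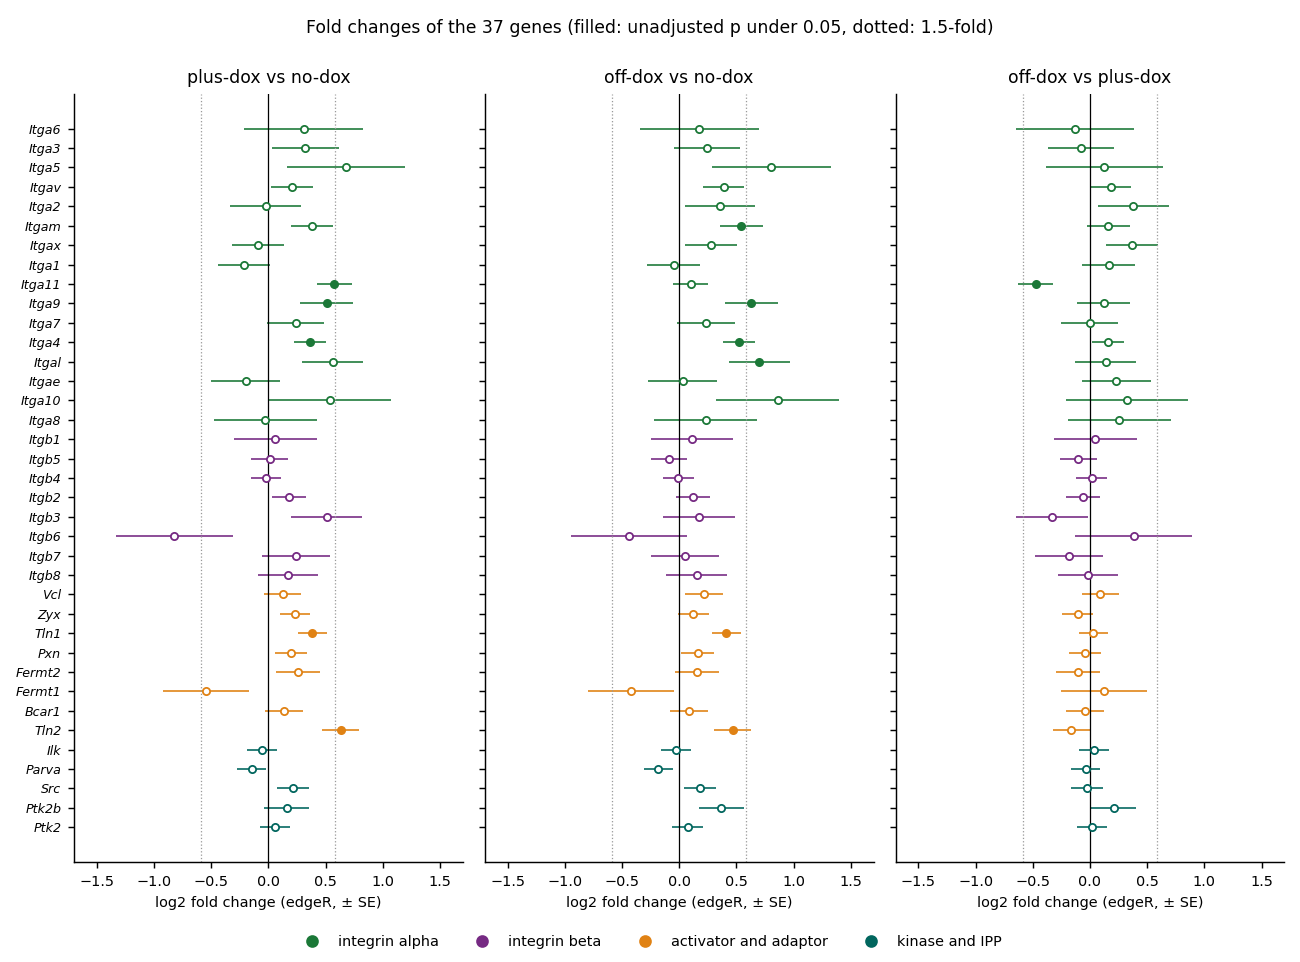
Log2 fold change of each of the 37 genes (y axis, ordered by role and mean RPKM) in the 3 comparisons (panels), from edgeR with bars for the SE, filled where the unadjusted p was under 0.05 and with dotted lines at 1.5-fold. Filled points number 5, 6 and 1 from left to right, and those of the first 2 panels are all to the right of 0.

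Tumors 3 days off dox were compared with no-dox tumors to ask what remained after the dox that was to induce p53R270H had been withdrawn. No member was called by edgeR, beside 1.34% of all genes tested (235 of 17561). The 1 member with an adjusted p under 0.1, Itga4, changed by less than 1.5-fold. With unmoderated fold changes DESeq2 called Itga9 (log2 fold change 0.64, adjusted p = 0.0931), and with moderated ones no member. An unadjusted p under 0.05 was found in 6 of 37 members, all higher in off-dox tumors, beside 20.4% of all genes (10.9% higher there). Besides Itga4 they were Tln1, Tln2, Itga9 and the beta2 partners Itgam and Itgal. The median log2 fold change was 0.18 over the members and 0.01 over all genes. Positive values were found in 30 of 37 members, beside 8905 of all 17561 genes. The groups did not overlap in 2 members (Itga4 and Tln1), beside 11.5% of all genes.

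Itga4 (mm9 chr2:79095583-79173271, plus strand), the alpha chain of the VCAM1 receptors of leukocytes, was at 1.48, 1.86, 1.59 and 1.39 RPKM in no-dox, at 1.99, 2.22, 1.53 and 2.36 in plus-dox and at 1.88, 2.53, 2.28 and 2.19 in off-dox tumors. All off-dox tumors were above all no-dox tumors, the closest pair being 1.88 and 1.86. Its log2 fold change was 0.52 for off-dox (SE 0.14, adjusted p = 0.097) and 0.36 for plus-dox against no-dox (SE 0.14, adjusted p = 0.334). The adjusted p of the former stayed under 0.1 without plus-dox 2 (0.0887) or off-dox 1 (0.0481) and exceeded it without any of the other 10 tumors.

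Itgam (CD11b), the myeloid partner of beta2, was at 14.5, 17.0, 13.7 and 13.3 RPKM in no-dox, at 15.8, 19.2, 20.002 and 20.5 in plus-dox and at 16.3, 28.4, 24.2 and 14.6 in off-dox tumors. Off-dox 2 and 3 were the highest of all, and off-dox 1 and 4 lay within the no-dox range. On the log2 scale the difference was 0.54 for off-dox (SE 0.19, adjusted p = 0.147) and 0.38 for plus-dox against no-dox (SE 0.19, adjusted p = 0.385). With the share of mapped reads on genes as a covariate both changed sign, to -0.14 and -0.08. That share was higher in every no-dox tumor than in any other, so the fit can barely separate it from dox.

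Itgal (CD11a), a leukocyte partner of beta2 in the receptor LFA-1, was at 0.902, 1.25, 0.875 and 1.01 RPKM in no-dox, at 1.24, 2.27, 1.22 and 1.16 in plus-dox and at 1.45, 2, 1.10 and 1.86 in off-dox tumors. Plus-dox 2 and off-dox 2 were highest, and the groups overlapped. The log2 fold changes were 0.70 for off-dox (SE 0.27, adjusted p = 0.179) and 0.56 for plus-dox against no-dox (SE 0.27, adjusted p = 0.375), and the latter was 0.27 without plus-dox 2.

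Itga9 was at 2.46, 2.72, 3.35 and 2.50 RPKM in no-dox, at 2.85, 5.82, 3.63 and 3.25 in plus-dox and at 3.38, 4.34, 3.79 and 5.20 in off-dox tumors. No-dox 3 lay within the plus-dox range and just under the lowest off-dox RPKM, and on the log2 CPM scale it overlapped with the off-dox tumors too. The log2 fold change was 0.63 for off-dox (SE 0.23, adjusted p = 0.166) and 0.51 for plus-dox against no-dox (SE 0.23, adjusted p = 0.361), and the latter was 0.24 without plus-dox 2.

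Leukocyte markers were read beside these values, and the lists differed. The 8 T and NK cell markers summed to 2.73 to 4.52 RPKM in no-dox, 5.42 to 6.998 in plus-dox and 4.95 to 8.96 in off-dox tumors, so the no-dox tumors lay below both other groups. In off-dox against no-dox tumors 2 of these 8 were called, Cd4 (log2 fold change 0.73, adjusted p = 0.0933) and Nkg7 (1.65, adjusted p = 0.0875), while the defining Cd3e was at 0 to 0.149 RPKM. The 6 neutrophil markers summed to 23.4 to 35.2, 34.1 to 57.5 and 23.97 to 50.0 RPKM, with Csf3r and Cxcr2 called in off-dox tumors (0.78 and 0.90, adjusted p = 0.0832 each). The 8 macrophage markers, 7 of them tested, summed to 991 to 1350, 1002 to 1249 and 932 to 1595 RPKM with 0 called, and Itgb2, the shared beta chain, had log2 fold changes of 0.18 and 0.12 (adjusted p = 0.568 and 0.664). Of the epithelial, fibroblast and endothelial lists 0 genes were called by edgeR, with an unadjusted p under 0.05 in 1, 5 and 3 genes in plus-dox and in 1, 1 and 0 in off-dox against no-dox tumors. The dendritic and B cell lists also had 0 calls by edgeR, with an unadjusted p under 0.05 in 1 and 0 genes in off-dox and in 0 and 0 in plus-dox against no-dox tumors. The part of these cells in the values of Itga4, Itgal and Itgam was not tested.

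The off-dox calls depended on single tumors. Without off-dox 1, Itga4 and Itgam were called (2 members) and 789 genes in all, and without plus-dox 2, Itga9 was called. The count of all genes was 0 without no-dox 1, no-dox 2, no-dox 4, plus-dox 4, off-dox 2, off-dox 3 or off-dox 4, 1 without no-dox 3 and 19 without plus-dox 3. Members whose groups did not overlap numbered 4 without no-dox 2, no-dox 3 or off-dox 3. Here too leaving out a tumor could only keep or raise the number. With the share of mapped reads on genes as a covariate 1 member kept p under 0.05.

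**Figure D5:**
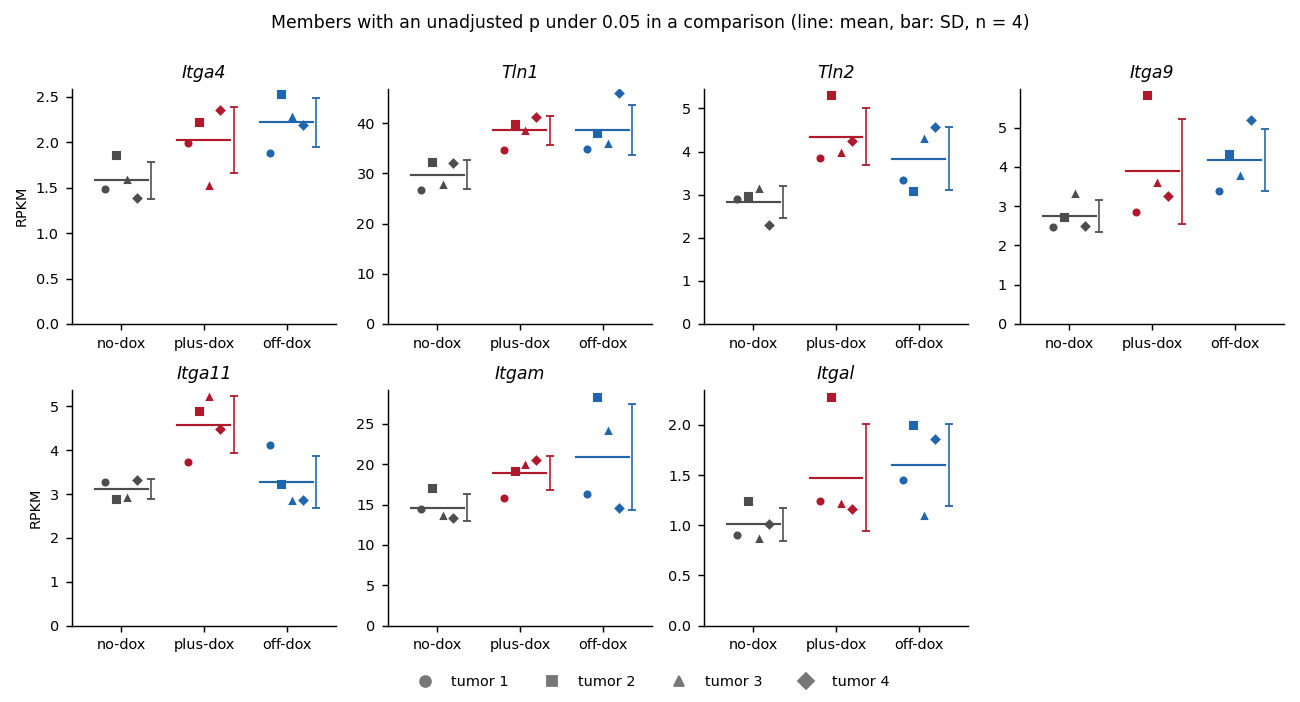
RPKM in each tumor of the 7 members with an unadjusted p under 0.05 in any comparison, with marker shape for the tumor number, a line for the group mean and a bar for the SD (n = 4 per group). No-dox tumors are lowest as a group in every panel, and Itga11 alone is highest in plus-dox tumors and close to no-dox in off-dox tumors (3.11, 4.58 and 3.27 RPKM on average).

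Off-dox and plus-dox tumors were compared to ask what changed when dox was withdrawn. No member was called, beside 0% of all genes, and DESeq2 also called 0 members. Itga11 was the 1 member of 37 with an unadjusted p under 0.05, beside 3.06% of all genes, at a log2 fold change of -0.48 (SE 0.15, adjusted p = 1). It lost this p under none of the tumors left out, while 2 members had p under 0.05 without no-dox 3, plus-dox 4 or off-dox 3. The share of all genes was not counted with fewer tumors, here or for overlap. All 37 members overlapped between these groups, beside 1.4% of all genes that did not. Without plus-dox 1 and off-dox 1, 2 and 1 members did not overlap, a count that leaving out a tumor can only keep or raise. The median log2 fold change was 0.03, with 21 of 37 values positive, beside 8750 of all 17561 genes. In a joint test of the 3 groups 0 members had an adjusted p under 0.1 and 6 had an unadjusted p under 0.05, led by Itga11 and Tln2 (adjusted p = 0.208 each), and Itga11 passed without off-dox 1 (adjusted p = 0.0994). Over all genes that test passed 0 at an adjusted p under 0.1 and 2621 at an unadjusted p under 0.05.

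The most abundant intracellular members differed little between tumors. Ilk, the integrin-linked pseudokinase that ties kindlin and parvin to the beta tail, was at 91.9, 84.2, 99.3 and 72.8 RPKM in no-dox, at 85.6, 91.4, 70.9 and 84.8 in plus-dox and at 72.5, 74.5, 97.3 and 90.3 in off-dox tumors. Its highest value was 1.4 times its lowest, with high and low tumors in every group. The log2 fold changes against no-dox were -0.06 and -0.03 (SE 0.13, adjusted p = 0.846 and 0.924).

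Parva, the partner of Ilk in binding actin, was at 41.3, 44.1, 34.2 and 45.1 RPKM in no-dox, at 41.7, 31.6, 35.6 and 39.2 in plus-dox and at 41.1, 35.1, 38.0 and 28.1 in off-dox tumors. Off-dox 4 and plus-dox 2 were lowest, and the log2 fold changes were -0.14 and -0.18 (SE 0.13, adjusted p = 0.589 and 0.423).

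Vcl (vinculin, which reinforces the link from talin to actin) was at 33.5, 36.5, 42.9 and 51.4 RPKM in no-dox, at 39.0, 43.5, 50.6 and 45.1 in plus-dox and at 44.7, 53.1, 41.7 and 48.3 in off-dox tumors. The no-dox tumors alone spanned most of the whole range. Log2 fold changes were 0.12 and 0.22 (SE 0.16, adjusted p = 0.726 and 0.468).

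Zyx (zyxin, a sensor of tension in actin) was at 35.5, 36.8, 41.7 and 39.8 RPKM in no-dox, at 36.9, 55.1, 45.4 and 42.0 in plus-dox and at 38.3, 39.8, 45.1 and 41.6 in off-dox tumors. Plus-dox 2 alone was above 45.4 RPKM, and the log2 fold changes were 0.23 and 0.13 (SE 0.14, adjusted p = 0.441 and 0.619). The signaling members Ptk2, Src, Ptk2b, Bcar1 and Pxn had means of 13.6, 25.7, 22.9, 20.4 and 32.8 RPKM and log2 fold changes of 0.06 to 0.37 against no-dox in both comparisons, with no p under 0.05.

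Because receptors form from pairs, RPKM ratios of 22 alpha and beta partners were set side by side as descriptions. The ratio of Itga6 to Itgb4 ran from 1.14 in plus-dox 4 to 7.38 in plus-dox 2, with 3.52 in no-dox 3, so the hemidesmosome chain did not follow alpha6 in the tumors where alpha6 and beta1 were high. The ratio of Itga5 to Itgb1 was 0.0911, 0.0907, 0.110 and 0.0876 in no-dox, 0.109, 0.173, 0.156 and 0.121 in plus-dox and 0.121, 0.139, 0.128 and 0.189 in off-dox tumors. Off-dox tumors were all above no-dox tumors in this ratio alone of the 22, and plus-dox 1 overlapped with no-dox 3. Between plus-dox and no-dox tumors 2 ratios did not overlap, Itga9 to Itgb1 and Itgav to Itgb6. The latter was 10.9 to 19.4 in no-dox tumors and 21.4, 171, 19.7 and 25.4 in plus-dox tumors 1 to 4. The closest tumors were no-dox 4 at 19.4 and plus-dox 3 at 19.7, and the 171 came from plus-dox 2, where Itgb6 was lowest. None of the 22 separated off-dox from plus-dox tumors. Of all single genes tested, 8.86% did not overlap on log2 CPM in plus-dox and 11.5% in off-dox against no-dox tumors. In off-dox against plus-dox tumors 1.4% did not. Ratios of other gene pairs were not computed.

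Genes around the receptors were read from lists. Among 37 other focal adhesion genes tested 0 were called in any comparison, and the most abundant were Arpc2 of the Arp2/3 complex (mean 217 RPKM), the crosslinker Flna (148) and the alpha-actinin Actn4 (126). Among 27 integrin ligands 0 were called, with osteopontin (Spp1) at 3599 RPKM, fibronectin (Fn1) at 510 and Col3a1 at 503. Spp1 had log2 fold changes of -0.66 and -0.81 against no-dox (adjusted p = 0.327 and 0.116 in edgeR). Among 9 regulators of talin recruitment, led by the GTPases Rap1b (205 RPKM) and Rap1a (76.2) and by Itgb1bp1 (22.2), 0 were called. Unadjusted p under 0.05 occurred in 4 focal adhesion genes, 8 ligands and 3 regulators in plus-dox and in 4, 5 and 2 in off-dox against no-dox tumors. In off-dox against plus-dox tumors the numbers were 2, 3 and 0. DESeq2 called 0 in the focal adhesion and regulator lists, and of the ligands Col1a1 and Fbn1 in plus-dox (2) and Spp1 in off-dox (1) against no-dox tumors.

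Among 7 hemidesmosome partners, led by the tetraspanin Cd151 (161 RPKM), Lamb3 (30.1) and plectin (Plec, 23.8), 1 was called. Dst (dystonin, a plakin that ties keratins or other filaments to adhesion sites) was at 5.44 to 8.53 RPKM in no-dox, 9.79 to 17.3 in plus-dox and 9.24 to 22.2 in off-dox tumors. Its no-dox tumors were below all others, and the log2 fold change was 1.14 for off-dox (adjusted p = 0.0875) and 0.91 for plus-dox against no-dox (adjusted p = 0.322, though DESeq2 called it there too). Dst also has muscle and nerve forms, and the 8 skeletal muscle markers summed to 10.7 to 181 RPKM in no-dox, 139 to 437 in plus-dox and 12.0 to 1203 in off-dox tumors. In off-dox against no-dox tumors Actn3 of this list was called (log2 fold change 4.53, adjusted p = 0.0876), 6 of 8 had an unadjusted p under 0.05, and all 8 were positive there and in plus-dox against no-dox tumors. The part of muscle in the Dst value was not tested. Col17a1, the collagen of mature hemidesmosomes, had a mean of 0.067 RPKM. The 3 other integrin genes, Itga2b, Itgad and Itgbl1, had means of 1.01, 0.346 and 5.48 RPKM and 0 calls.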

How the data were processed

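PolyA RNA from 12 subcutaneous tumors was sequenced by the authors as unstranded 50-bp single-end reads and mapped to mm9 with TopHat 1.4.1. The submitters' processing notes also list Bowtie 0.12.8, CASAVA 1.8.2 and bedtools 2.16.2. The deposited expected counts are base-wise coverage of exonic spans belonging to 1 RefSeq gene only, expressed in reads, and the deposited RPKM values are these per exon length and mapped reads of the tumor. Without strand, reads of antisense or overlapping genes cannot be told apart.

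Counts were rounded to whole numbers and the 17561 genes whose counts over the 12 tumors summed to 10 or more were fitted together with edgeR 4.0.16 (R 4.3.3, TMM, quasi-likelihood test, 3 groups of 4), with Benjamini-Hochberg adjustment over all of them. DESeq2 1.42.0 was an alternative, and the fits were tested on simulated data. Call limits followed the methods of the study, which applied them to DESeq2 results. Overlap of groups and marker relations used log2 CPM with a prior count of 2, and relations a two-sided permutation test with 100000 resamples (scipy 1.17.1, numpy 2.4.6, pandas 2.3.3, Python 3.11.15, matplotlib 3.10.9 for plots). The smallest p these resamples can give is 1e-05. Tumors of a group differed beyond sampling noise (mean chi-square per gene 24.7 to 202), and all were kept.

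The members, marker lists and pathway lists were chosen with earlier results of these data known. Full values were given for members with an unadjusted p under 0.05 or without overlap in any pairwise comparison, and for the 6 integrin subunits and 4 other members with the highest mean RPKM. Fermt1 and Itgb6 were added after their values were seen. Of the pathway lists, called genes and the 3 with the highest mean RPKM were named. Promoter sequences came from RefSeq (GRCm38.p6), whereas gene positions are on mm9, as deposited. The full genotype of the line is not reported here.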

Additional observations from a re-analysis of the deposited data

Results flagged for a closer look

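In 8 of 111 groups of 4 tumors, 1 tumor lay apart from the other 3 by Dixon's criterion, which chance meets in about 1 in 20 groups. In plus-dox tumor 2, Itgb1 was at 437 RPKM beside 197 to 223 in the others of its group, Itga6 at 194 beside 44.9 to 55.2, and Itgal at 2.27 beside 1.16 to 1.24. In plus-dox tumor 4, Itga7 was at 4.57 RPKM beside 2.66 to 2.94 and Itga10 at 2.38 beside 0.449 to 0.754. In no-dox tumors, Itga5 was at 37 RPKM in tumor 3 beside 19.9 to 21.6, Itgb6 at 2.59 in tumor 2 beside 1.43 to 1.52, and Bcar1 at 24.8 in tumor 4 beside 17.4 to 18.1. The causes were not tested.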

How the results depend on the processing

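For the 17 members given in full, 735 log2 fold changes were recomputed under 21 alternatives of the fits. Of these, 665 kept their direction and their side of an adjusted p of 0.1, and 38 reversed. Another 18 passed an adjusted p under 0.1 only in the alternative and 14 only in the main setting. The share of mapped reads on genes as a covariate, and plus-dox tumor 2 and off-dox tumor 4 left out together, were alternatives chosen after seeing the data. In comparisons with no-dox the covariate can barely be separated from dox, as every no-dox tumor had a higher share than the others. The cause of each change was not tested.

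For plus-dox against no-dox, DESeq2 called 1 member and 128 genes with unmoderated fold changes and 0 members and 90 genes with moderated ones, and passed 2 members at an adjusted p under 0.1 with either. With the covariate 2 members, and without the pair of tumors 3, had an unadjusted p under 0.05. For off-dox against no-dox, DESeq2 called 1 member (Itga9) and 615 genes with unmoderated fold changes. It called 0 members and 396 genes with moderated ones, and passed 5 members at an adjusted p under 0.1 with either. Genes called were 122 with no filter on counts, 365 with at least 10 counts in every tumor, 3 with the 8 tumors of the pair alone, 0 with the covariate, 471 without the pair of tumors and 0 at an adjusted p under 0.05. Members with an adjusted p under 0.1 were 0, 2, 0, 0, 2 and 0 in the same order, 1 member was called without the pair of tumors, and 1 kept an unadjusted p under 0.05 with the covariate. For off-dox against plus-dox, DESeq2 called 6 genes (unmoderated) or 4 (moderated), and 2 members had an unadjusted p under 0.05 with the 8 tumors of the pair alone.

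Leaving out each tumor in turn gave 0 to 3 genes called in plus-dox against no-dox, 0 to 789 in off-dox against no-dox and 0 to 1 in off-dox against plus-dox. Members called in off-dox against no-dox ranged from 0 to 2 and those with an adjusted p under 0.1 from 0 to 4. Members with an unadjusted p under 0.05 ranged from 3 to 9, 4 to 8 and 1 to 2, and members passing the joint test from 0 to 1. The share of all genes at an unadjusted p under 0.05 was counted only in the main setting. Members not overlapping ranged from 3 to 5, 2 to 4 and 0 to 2, counts that leaving out a tumor can only keep or raise.

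These log2 fold changes against no-dox reversed. With the covariate, Itgam became -0.081 (plus-dox) and -0.14 (off-dox), Vcl -0.010 (plus-dox) and Itgb5 0.0095 (off-dox). Without the pair of tumors, the plus-dox and off-dox values were -0.30 and -0.32 for Itgb1, -0.49 and -0.26 for Itga6, -0.019 and -0.033 for Itga3, and 0.091 and 0.0089 for Itgb4. The off-dox value of Itgb4 was 0.00095 and 0.00088 with DESeq2 (unmoderated and moderated), 0.0010 with RLE normalization and 0.018 with at least 10 counts in every tumor. Leaving out each tumor, plus-dox values ranged from -0.29 to 0.25 for Itgb1, -0.49 to 0.62 for Itga6, -0.080 to 0.097 for Itgb5, -0.015 to 0.47 for Itga3, -0.078 to 0.095 for Itgb4 and -0.12 to 0.032 for Ilk. Off-dox values ranged from -0.33 to 0.29 for Itgb1, -0.27 to 0.49 for Itga6, -0.037 to 0.37 for Itga3, -0.062 to 0.065 for Itgb4, -0.097 to 0.066 for Ilk and -0.019 to 0.17 for Itga11.

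The tumors share only a number across groups. Same-numbered tumors had a mean correlation of deviations of -0.09 (12 pairs, -0.45 to 0.57), others 0.04 (36 pairs), and 3 of 24 best matches had the same number. When the fit held the replicate number as a block, 0 genes were called and 0 members had an adjusted p under 0.1 in off-dox against no-dox, with 6, 7 and 1 members at an unadjusted p under 0.05 in the 3 comparisons.

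With 4 tumors a group, possibly sharing mice, log2 differences as large as 0.68 and 0.81 (Itga5, SE 0.52) did not pass the test. Low members such as Itga8 rested on as few as 9 counts.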
